A study of Mus musculus with 6 samples.

Results

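The genes described here build, check and export secreted proteins in the endoplasmic reticulum (ER): the sensors and transcription factors of the unfolded protein response (UPR), the ER chaperones and disulfide isomerases, the ER-associated degradation (ERAD) machinery, the translocon, the COPII coat and the KDEL receptors. They were chosen by name, as 39 gene symbols out of the 23700 gene entries in each library, and all 39 were found, had an estimate in every library and were among the 11900 entries tested. By role they fell into 7 sensors and factors, 14 chaperones and folding enzymes, 4 ERAD genes, 4 translocon genes, 8 genes of ER exit and 2 KDEL receptors.

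The PTH group was 3 libraries of IDG-SW3 cells given 50 nM bovine PTH (1-34) on day 28 for 24 hours, and the Control group was 3 libraries of the same cells given an equal volume of PBS. IDG-SW3 is an immortalised mouse line that matures from osteoblast to osteocyte-like cells. It was made from long bones of mice carrying Dmp1-GFP, a reporter driven by the promoter of an osteocyte gene, and a temperature-sensitive T-antigen. Cells of both groups had been kept for 28 days in 50 µg/ml ascorbic acid and 4 mM betaglycerophosphate. It is a single line, and nothing in the labels says that the wells were separate cultures, so p-values measure only how the wells differ, which may be technical variation.

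In bone, osteoblasts and young osteocytes secrete large amounts of type I collagen. A secreted chain enters the ER through the Sec61 channel, is folded by chaperones such as BiP and by disulfide isomerases, and leaves in vesicles shaped by the COPII coat, while chaperones that escape to the Golgi are brought back by KDEL receptors. When unfolded protein accumulates, the sensors IRE1, PERK and ATF6 slow translation and activate chaperone, ERAD and transport genes. OASIS and BBF2H7, relatives of ATF6 that are also cut at the Golgi, act in this way in mouse osteoblasts and chondrocytes.

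Expression was measured as FPKM, the fragments of a gene relative to the length of its transcript and to the mapped fragments of the library. Outside type I collagen the bounds deposited with each value implied 22479950 to 24481480 fragments in the PTH libraries and 13958213 to 19043743 in the Control libraries, so that every PTH library was deeper. Col1a1 and Col1a2 had 5602 to 5861 and 5409 to 5792 FPKM with PTH but no estimate in Control, where all 3 libraries list them at 0 with the HIDATA status, Cufflinks' mark for loci holding too many fragments to process. That 0 is therefore not a low level, and both genes were left out of the tests, the sums and the rescalings. The mature osteocyte genes Sost, Mepe, Dmp1 and Phex were lower with PTH, the early osteocyte gene Pdpn was higher, and Fgf23 was at or near 0 in all libraries. Of 5 osteoblast markers 4 were lower and Alpl did not pass the test. The summed FPKM of 7 adipocyte markers, all of them lower, was 72.9 to 152 with PTH and 534 to 754 in Control, and that of 6 chondrocyte markers, of which 4 were lower and Sox9 higher, was 54.9 to 68.5 with PTH and 185 to 204 in Control. Macrophage and leukocyte markers summed to 2.07 to 3.06 FPKM with PTH and 1.16 to 1.59 in Control with Emr1 at 0 throughout, and endothelial markers summed to at most 0.127 FPKM with Cdh5 and Tie1 at 0. The part that depth or other cell types had in the results below was not tested, and in bulk RNA fewer cells of a type cannot be told apart from less RNA per cell.

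The factors of the UPR act through known sequence elements in promoters. A window from 250 bases before to 50 bases after the start was found for 33 of the 39 genes in the RefSeq promoter table (GRCm38.p6). Atf6, Creb3l1, Hyou1, Kdelr2, Manf and Sec61a1 had none there. Both strands were searched for the ER stress response element ERSE (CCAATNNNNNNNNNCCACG), which ATF6 and XBP1 bind together with NF-Y. It was found in 7 of the 33 genes (21.2%) and in 39 of all 32851 windows (0.119%). Here and below the first share counts genes and the second counts windows. Those windows belong to 27025 genes, the 33 included, so the shares are not in the same unit. Its shorter form ERSE-II (ATTGGNCCACG) was in 2 of the 33 genes (6.06%) and in 0.0365% of all windows. The upstream region of Hspa5, which encodes BiP, is shown because it holds both an ERSE and the core of the UPR element (UPRE), with the matches in capitals.
Hspa5 (chr2:34771840-34772089, plus strand): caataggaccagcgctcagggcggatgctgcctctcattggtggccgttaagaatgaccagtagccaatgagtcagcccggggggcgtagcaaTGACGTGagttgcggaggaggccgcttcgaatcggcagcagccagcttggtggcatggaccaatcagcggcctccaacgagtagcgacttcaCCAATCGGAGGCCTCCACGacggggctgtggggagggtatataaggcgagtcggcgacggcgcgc
The other matches to ERSE and ERSE-II, each with its flanks and the match in capitals, lie in folding and ERAD genes, all before the start of the gene except that of Dnajb11, which begins at position 8 after it. All sequences run 5′ to 3′ along the gene, and those of Calr and of the second site in Hsp90b1 show the element on the opposite strand, where it reads from CGTGG to ATTGG.
Hsp90b1 (chr10:86705633-86705661, minus strand): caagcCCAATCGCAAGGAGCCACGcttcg
Hsp90b1 (chr10:86705528-86705556, minus strand): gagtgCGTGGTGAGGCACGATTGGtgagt
Calr (chr8:84847070-84847098, minus strand): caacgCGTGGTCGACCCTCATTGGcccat
Canx (chr11:50325795-50325823, minus strand): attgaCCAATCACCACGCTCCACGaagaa
Pdia6 (chr12:17266486-17266514, plus strand): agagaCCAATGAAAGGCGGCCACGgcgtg
Dnajc3 (chr14:118937822-118937850, plus strand): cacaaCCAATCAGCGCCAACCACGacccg
Syvn1 (chr19:6046527-6046555, plus strand): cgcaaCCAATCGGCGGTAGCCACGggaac
Herpud1 (chr8:94386368-94386396, plus strand): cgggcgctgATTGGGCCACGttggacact
Dnajb11 (chr16:22857843-22857871, plus strand): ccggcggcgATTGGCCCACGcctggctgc
The UPRE core TGACGTG, bound by XBP1 and ATF6 and close to the sites known for OASIS and BBF2H7, was in 5 of the 33 genes (15.2%) and in 2.01% of all windows. Apart from Hspa5 these were 4 transport genes, Sec24d, Sec23a, Mia3 and Kdelr3. The region before Sec24d is shown in full.
Sec24d (chr3:123267246-123267495, plus strand): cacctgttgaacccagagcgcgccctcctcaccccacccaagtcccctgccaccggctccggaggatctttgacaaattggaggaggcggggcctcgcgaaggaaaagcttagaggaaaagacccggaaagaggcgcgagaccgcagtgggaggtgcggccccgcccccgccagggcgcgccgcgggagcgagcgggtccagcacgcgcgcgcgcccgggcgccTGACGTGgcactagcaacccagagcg
The cores of the other transport genes had these surroundings, with that of Kdelr3 on the opposite strand.
Sec23a (chr12:59011995-59012021, minus strand): tcctccccttTGACGTGgcagaggcgg
Kdelr3 (chr15:79516369-79516395, plus strand): gccgccccgcCACGTCAccgcgcggcc
Mia3 (chr1:183369635-183369661, minus strand): gagcccttgcTGACGTGtcactcgcag
The full cAMP response element TGACGTCA, a site of CREB, was in none of the 33 genes and in 1.79% of all windows. Shorter forms of it were not searched for. TGATGCAA, the core of the element that ATF4 binds, was in Herpud1 alone of the 33 genes and in 0.895% of all windows. No match in a member overlapped one of another element. These are matches of letters, not measured binding.

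PTH treatment was accompanied by lower transcript levels for most of these genes. Of the 39 genes 26 fell, 10 rose and 3 did not pass the test (limma on log2(FPKM + 1), adjusted p below 0.05 over all entries tested). Among all entries 23.5% fell and 50.3% rose, 73.8% being called in either direction. The FPKM of the PTH and Control libraries did not overlap for 37 of the 39 genes, and for 78.3% of all entries. The median change of the 39 genes, PTH minus Control, was -0.20 on the log2 scale, against 0.15 for all entries, and 32 of the 39 lay below that overall median. Creb3l1 was the only gene of the 39 to change at least 2-fold, which 9.24% of all entries did. The summed FPKM of the 39 genes was 4624, 4665 and 4676 with PTH, and 5357, 5017 and 5233 in Control.

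Because the median entry was higher with PTH, the directions were also read after rescaling the libraries. With median-of-ratios scaling, which brings the median change of all entries to 0.0026, 34.1% of all entries rose and 34.1% fell, and of the 39 genes 5 rose and 29 fell. With equal sums 7 rose and 28 fell, and with quantile scaling, under which 4613 of all entries rose and 3632 fell, 5 rose and 29 fell. Equal sums and median-of-ratios lower PTH relative to Control by construction, so a fall could hardly be lost under them. Quantile scaling also lowered the median change of all entries, to 0.044. The rescalings therefore bear mainly on the genes that rose. The 26 genes that fell did so under all 3 rescalings, and 4 of the 10 that rose also did (Creb3l2, Ddit3, Hyou1 and Edem1). Ern1, Manf, Calr, Canx, P4hb and Sar1b lost their call under at least 1 of them, with the estimate below 0 for Manf and Calr (median-of-ratios and quantile) and for Canx (median-of-ratios).

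**Figure D1:**
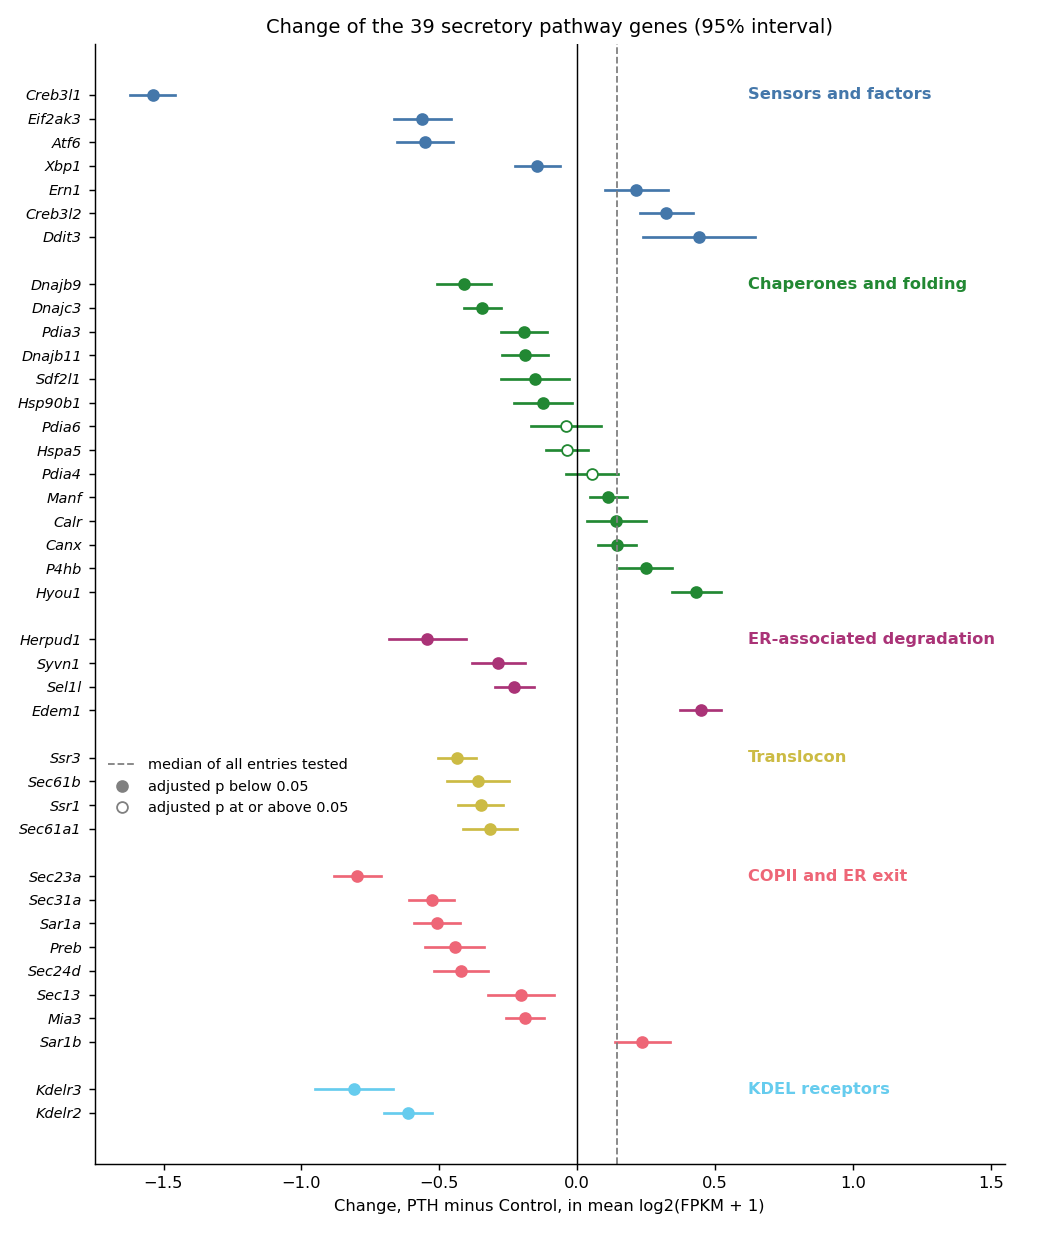
Change of each of the 39 genes with PTH, as the difference PTH minus Control in mean log2(FPKM + 1) on the horizontal axis with its 95% interval, grouped by step and ordered by size within it; filled points passed the test, open points did not, and the dashed line is the median of all entries tested (0.15). Both KDEL receptors, all 4 translocon genes and 7 of 8 ER exit genes lie left of 0, while the chaperones spread on both sides and Creb3l1 lies far to the left at -1.54.

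Among the sensors, which sit in the ER membrane, the ATF6 and PERK genes fell and the IRE1 gene was slightly higher. Atf6 had 8.59, 8.37 and 7.76 FPKM with PTH, against 12.2, 12.8 and 12.6 FPKM in Control (log2 change -0.55 ± 0.043 SE, limma adjusted p = 3.84e-05). Eif2ak3, which encodes PERK, the kinase that slows translation, had 12.0, 12.0 and 11.9 FPKM with PTH, against 18.0, 17.2 and 19.2 FPKM in Control (-0.56 ± 0.043, limma adjusted p = 3.83e-05). For both genes every PTH library was below every Control library by more than the spread within either group. Ern1, the IRE1 gene, whose product splices the Xbp1 transcript, had 8.86, 9.13 and 8.75 FPKM with PTH, against 7.11, 8.05 and 7.50 FPKM in Control (0.21 ± 0.047, limma adjusted p = 0.00575). The groups did not overlap, but the difference did not pass the test under any of the 3 rescalings.

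The transcription factors of the UPR moved in both directions. Creb3l1 (chromosome 2, 91822485 to 91864327, mm9), the gene of OASIS, which in mouse osteoblasts activates Col1a1, had 86.9, 87.5 and 85.9 FPKM with PTH, against 256, 245 and 261 FPKM in Control. The PTH libraries held 0.341 times the Control level (log2 change -1.54 ± 0.033 SE, limma adjusted p = 1.29e-07), and 2.93% of all entries had a lower change. Its relative Creb3l2, the gene of BBF2H7, was higher, with 20.8, 21.7 and 20.2 FPKM with PTH, against 17.0, 15.8 and 16.8 FPKM in Control (0.32 ± 0.040, limma adjusted p = 0.000376). Creb3l1 remained the more abundant of the pair in both groups. Its share of their summed FPKM was 80.7%, 80.1% and 80.9% with PTH and 93.8%, 93.9% and 94.0% in Control. Xbp1 (chromosome 11, 5420970 to 5425875), the factor activated by IRE1, had 96.7, 93.6 and 96.6 FPKM with PTH, against 109, 103 and 106 FPKM in Control (-0.15 ± 0.034, limma adjusted p = 0.00715), and gene-level values do not separate its spliced form. Ddit3, which encodes CHOP, a factor of prolonged stress, had 43.0, 34.0 and 39.1 FPKM with PTH, against 27.0, 29.7 and 27.7 FPKM in Control (0.44 ± 0.085, limma adjusted p = 0.003). Its PTH libraries were all above the Control libraries but spread more widely than those of any other factor in the set.

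**Figure D2:**
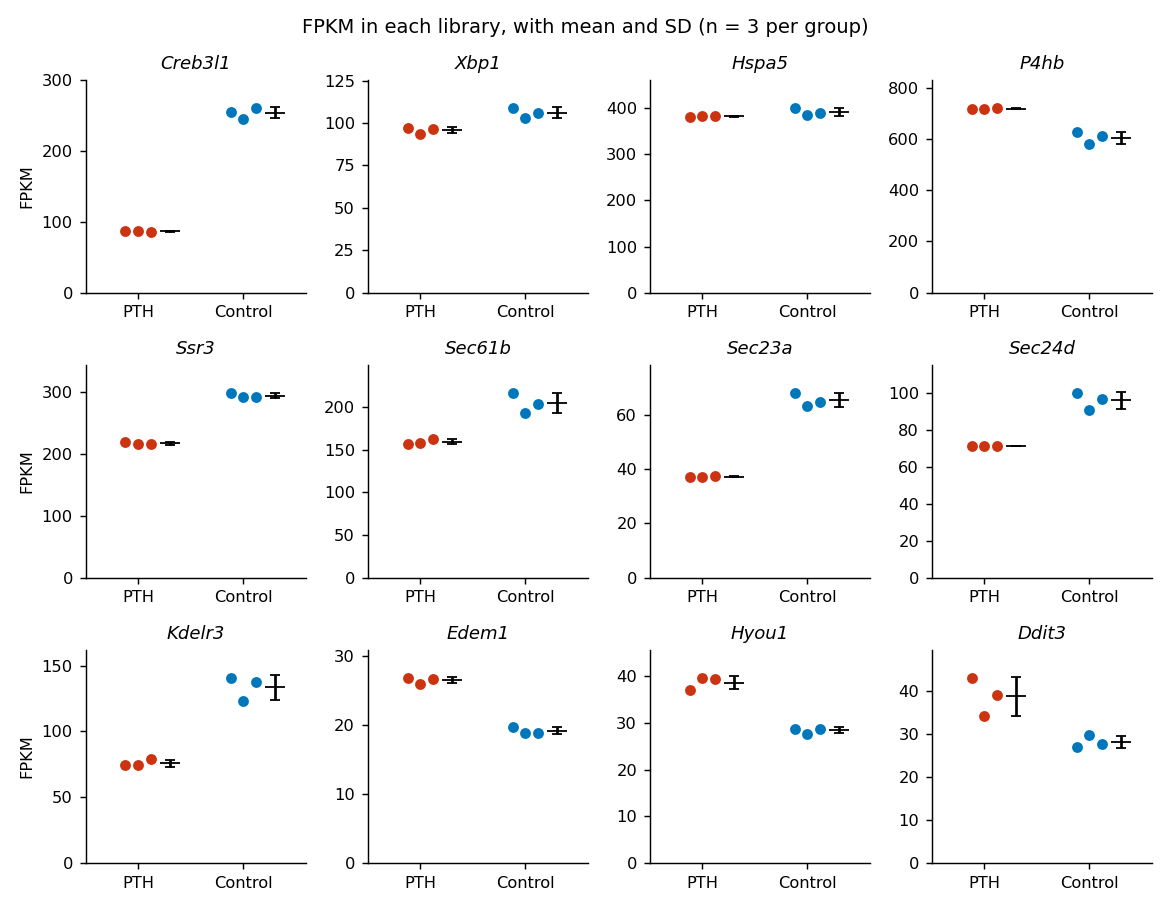
FPKM of 12 of the genes in each library (vertical axes, from 0), PTH at left in red and Control at right in blue, with the mean and SD of the 3 libraries beside the points. Creb3l1, Sec23a and Kdelr3 stand furthest apart with PTH below Control, Hspa5 is nearly level, and P4hb, Edem1, Hyou1 and Ddit3 are higher with PTH.

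On the deposited scale, that of the values per library, the summed level of the chaperones was close in PTH and Control. Members moved both ways. Their summed FPKM was 2957, 3034 and 3012 with PTH, and 3004, 2810 and 2912 in Control. Of the 14 genes 5 rose, 6 fell and 3 did not pass the test (median change -0.040). This balance depended on the scaling. With median-of-ratios scaling 2 rose and 9 fell (median change -0.20), and with quantile scaling 1 rose and 9 fell. In the FPKM per group that the authors also deposited, Calr (623 with PTH, 622 in Control) and Canx (131 in both) were level. Hyou1 (37.1 and 30.1), P4hb (691 and 641) and Pdia4 (129 and 121) were higher there. The rest were lower, among them Manf (59.0 and 60.1) and Hspa5 (366 and 414). Hspa5 (chromosome 2, 34627610 to 34632049, mm9), whose product BiP is the main ER Hsp70 and holds the UPR sensors inactive, had 381, 382 and 383 FPKM with PTH, against 401, 385 and 389 FPKM in Control. Its change was -0.037 with a 95% interval from -0.11 to 0.039 (limma adjusted p = 0.319), although it was called lower under all 3 rescalings. Hsp90b1, the ER Hsp90 called GRP94, had 302, 324 and 306 FPKM with PTH, against 352, 329 and 334 FPKM in Control (-0.12 ± 0.044 SE, limma adjusted p = 0.0385). The gap between its nearest libraries was small, and the call was lost without either of PTH replicates 1 and 3 or either of Control replicates 1 and 3. Hyou1, an Hsp70 relative that helps BiP exchange its nucleotide, was the chaperone that rose most, with 37.0, 39.7 and 39.4 FPKM with PTH, against 28.8, 27.7 and 28.8 FPKM in Control (0.43 ± 0.037, limma adjusted p = 6.63e-05).

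The J-domain partners of BiP all fell. Dnajb9 (ERdj4), which represses IRE1, had 25.0, 22.6 and 23.4 FPKM with PTH, against 31.6, 32.0 and 31.6 FPKM in Control (-0.41, limma adjusted p = 0.00013). Dnajc3 (P58IPK), an inhibitor of PERK, fell by 0.34 and Dnajb11 (ERdj3) fell by 0.19 on the log2 scale, both with groups that did not overlap. Sdf2l1, which works with ERdj3, was called lower at -0.15 but at 13.6, 13.9 and 14.6 FPKM with PTH, against 15.0, 15.3 and 16.8 FPKM in Control, and the call was lost without PTH replicate 1 or 2 or Control replicate 3. Manf, a secreted protein that binds BiP and is induced by ER stress, had 60.8, 62.0 and 61.6 FPKM with PTH, against 58.1, 56.5 and 55.8 FPKM in Control (0.11 ± 0.028). That small rise was below the median entry and turned round under median-of-ratios and quantile scaling.

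Of the lectin chaperones, which hold glycoproteins in the folding cycle, Calr and Canx were both slightly higher on the deposited scale. Calr, the gene of calreticulin, had 629, 665 and 656 FPKM with PTH, against 613, 564 and 591 FPKM in Control (0.14 ± 0.045, limma adjusted p = 0.0259), a call that was lost without PTH replicate 2 or 3 or Control replicate 3. Canx, the gene of calnexin, had 136, 138 and 138 FPKM with PTH, against 126, 122 and 125 FPKM in Control (0.14 ± 0.029, limma adjusted p = 0.00344). Both changes were about that of the median entry. In the authors' FPKM per group both genes were nearly level between PTH and Control.

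The disulfide isomerases differed from one another. P4hb (chromosome 11, 120421618 to 120434250, mm9), which is both protein disulfide isomerase and the beta subunit of collagen prolyl 4-hydroxylase, had the highest mean level of the 39 genes, at 718, 718 and 724 FPKM with PTH, against 626, 581 and 612 FPKM in Control (0.25 ± 0.040 SE, limma adjusted p = 0.0013). Pdia3 (ERp57), the partner of calnexin and calreticulin, was instead lower, with 307, 317 and 314 FPKM with PTH, against 367, 348 and 357 FPKM in Control (-0.19 ± 0.034, limma adjusted p = 0.00215). Pdia4 had 117, 119 and 119 FPKM with PTH, against 119, 108 and 115 FPKM in Control, and its change of 0.054 had an interval from -0.041 to 0.15. Pdia6 had 135, 138 and 137 FPKM with PTH, against 150, 131 and 142 FPKM in Control, and its change of -0.042 had an interval from -0.17 to 0.084. Neither passed the test (limma adjusted p = 0.251 for Pdia4 and 0.489 for Pdia6), and their groups overlapped. Pdia6 was called lower, at -0.10, when Control replicate 2 was left out, and both genes were called lower under median-of-ratios and quantile scaling.

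In ERAD, which returns misfolded proteins to the cytosol for degradation, 3 genes fell and 1 rose. Herpud1, a scaffold of the complex, had 56.5, 50.1 and 56.4 FPKM with PTH, against 81.8, 75.7 and 81.4 FPKM in Control (-0.54 ± 0.058 SE, limma adjusted p = 0.00018). Syvn1, the ubiquitin ligase HRD1, had 16.0, 16.9 and 16.0 FPKM with PTH, against 20.2, 19.3 and 20.9 FPKM in Control (-0.29 ± 0.040), and Sel1l, its adaptor, fell by 0.23 on the log2 scale. Edem1, which marks misfolded glycoproteins for removal, went the other way, with 26.8, 25.9 and 26.6 FPKM with PTH, against 19.7, 18.9 and 18.8 FPKM in Control (0.45 ± 0.031, limma adjusted p = 2.41e-05), the largest rise among the 39 genes.

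All 4 translocon genes fell, by similar amounts (median change -0.36). Their summed FPKM was 537, 533 and 536 with PTH, and 720, 676 and 700 in Control, a ratio of 0.766. Sec61a1, the channel itself, had 127, 123 and 125 FPKM with PTH, against 160, 148 and 161 FPKM in Control (-0.32 ± 0.041 SE). Sec61b, a small channel subunit, had 157, 158 and 163 FPKM with PTH, against 217, 194 and 204 FPKM in Control (-0.36 ± 0.047). Of the translocon-associated TRAP complex, Ssr3 (chromosome 3, 65183579 to 65196475, mm9) had 219, 216 and 215 FPKM with PTH, against 298, 291 and 292 FPKM in Control (-0.44 ± 0.029, limma adjusted p = 1.83e-05), and Ssr1 fell by 0.35. No PTH library reached a Control library for any of them.

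At ER exit the COPII genes fell with 1 exception (7 lower, 1 higher, median change -0.43). The inner coat is made of Sec23 and Sec24 subunits, and loss of SEC23A or SEC24D in people is known to disturb the skeleton. Sec23a (chromosome 12, 60059371 to 60113004, mm9) had 37.2, 36.9 and 37.3 FPKM with PTH, against 68.1, 63.1 and 64.8 FPKM in Control, a ratio of 0.569 (-0.80 ± 0.035 SE, limma adjusted p = 2.67e-06). Sec24d (chromosome 3, 122970414 to 123068554) had 71.3, 71.6 and 71.4 FPKM with PTH, against 100.3, 90.8 and 97.1 FPKM in Control (-0.42 ± 0.041, limma adjusted p = 0.000114). The PTH libraries lay close together for both genes and well below the Control libraries. In the outer coat Sec31a had 85.1, 81.9 and 81.5 FPKM with PTH, against 122, 116 and 122 FPKM in Control (-0.53 ± 0.034), while Sec13, which also serves the nuclear pore, fell by 0.20. Preb, the exchange factor that loads SAR1 with GTP, fell by 0.44, and Mia3 (TANGO1), the receptor that brings procollagen to the exit site, fell by 0.19, the smallest change in this step.

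The exception was a member of a pair. Sar1a and Sar1b encode the GTPase that starts coat assembly. Sar1a had 102, 100.4 and 103 FPKM with PTH, against 151, 141 and 144 FPKM in Control (-0.51 ± 0.035 SE, limma adjusted p = 2.13e-05), whereas Sar1b had 50.2, 49.3 and 53.2 FPKM with PTH, against 44.3, 41.5 and 43.5 FPKM in Control (0.24 ± 0.041, limma adjusted p = 0.00196). The Sar1b call did not hold under median-of-ratios scaling. Within a library, where scaling cancels, Sar1b made up 32.9%, 32.9% and 34.1% of the pair with PTH, and 22.6%, 22.7% and 23.2% in Control.

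Both KDEL receptors of the set fell, more than the median gene of any other step. Kdelr3 (chromosome 15, 79346838 to 79358169, mm9) had 74.1, 74.3 and 78.9 FPKM with PTH, against 141, 123 and 138 FPKM in Control, a ratio of 0.567 (-0.81 ± 0.058 SE, limma adjusted p = 2.72e-05). Kdelr2 had 119, 118 and 117 FPKM with PTH, against 186, 173 and 183 FPKM in Control (-0.61 ± 0.036, limma adjusted p = 9.99e-06). The remaining receptor gene, Kdelr1, was outside the set and fell less than either. It had 102, 100.3 and 105 FPKM with PTH, against 140, 128 and 140 FPKM in Control (-0.41 ± 0.044, limma adjusted p = 0.000188).

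Shares within 3 further families were compared in the same way, giving 6 comparisons with Sar1b and Creb3l1, all chosen after the values had been seen. Sec23a made up 57.6% ± 0.42 of Sec23a and Sec23b with PTH and 69.1% ± 0.56 in Control (SD, n = 3 each). Sec24d made up 59.4% ± 0.51 of the 4 Sec24 genes with PTH and 66.1% ± 0.87 in Control. Kdelr3 made up 25.6% ± 0.62 of the 3 KDEL receptor genes with PTH and 29.7% ± 0.64 in Control, and Kdelr1 made up 34.6% ± 0.25 with PTH and 30.2% ± 0.29 in Control. The groups did not overlap in any of the 6. The two-sided exact permutation test could then only give p = 0.1 for each (0.1 after Benjamini-Hochberg adjustment). That is the smallest that 3 against 3 libraries can give, and it adds nothing to the lack of overlap. The shares of Kdelr3 and Kdelr1 are parts of the same sum and so not independent.

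**Figure D3:**
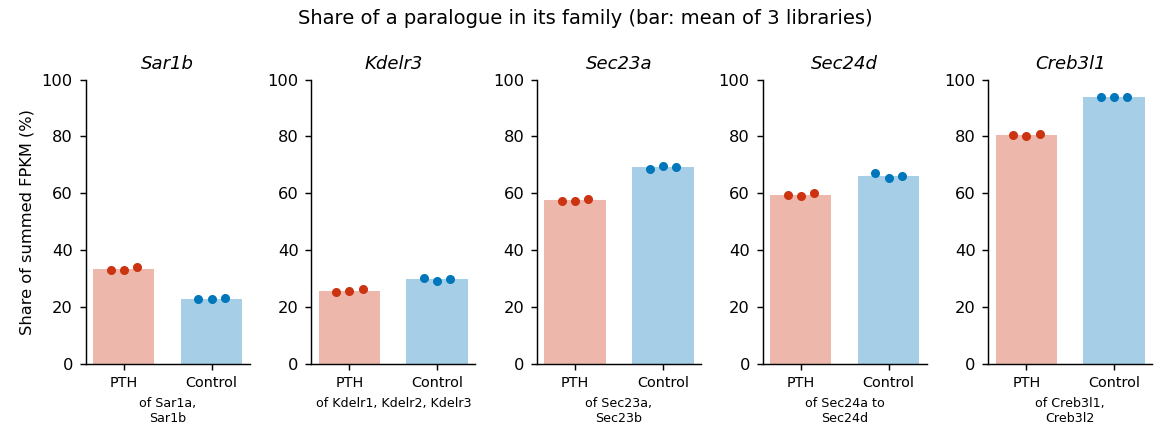
Share of 5 genes in the summed FPKM of their families, in percent from 0 to 100, with PTH at left in red and Control at right in blue; bars are means of 3 libraries and points are libraries. Sar1b takes a larger share with PTH, and Kdelr3, Sec23a, Sec24d and Creb3l1 a smaller one, without overlap between groups.

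The order of the steps was the same under all 4 scalings. Equal sums and median-of-ratios divide all values of a library by a common factor, so they could hardly alter it. The median change ran from -0.040 for chaperones and -0.15 for sensors and factors through -0.26 for ERAD, -0.36 for the translocon and -0.43 for ER exit to -0.71 for KDEL receptors. With median-of-ratios scaling the same medians were -0.20, -0.31, -0.41, -0.52, -0.59 and -0.87. Each is a median of few genes, and the differences between steps were not tested.

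**Figure D4:**
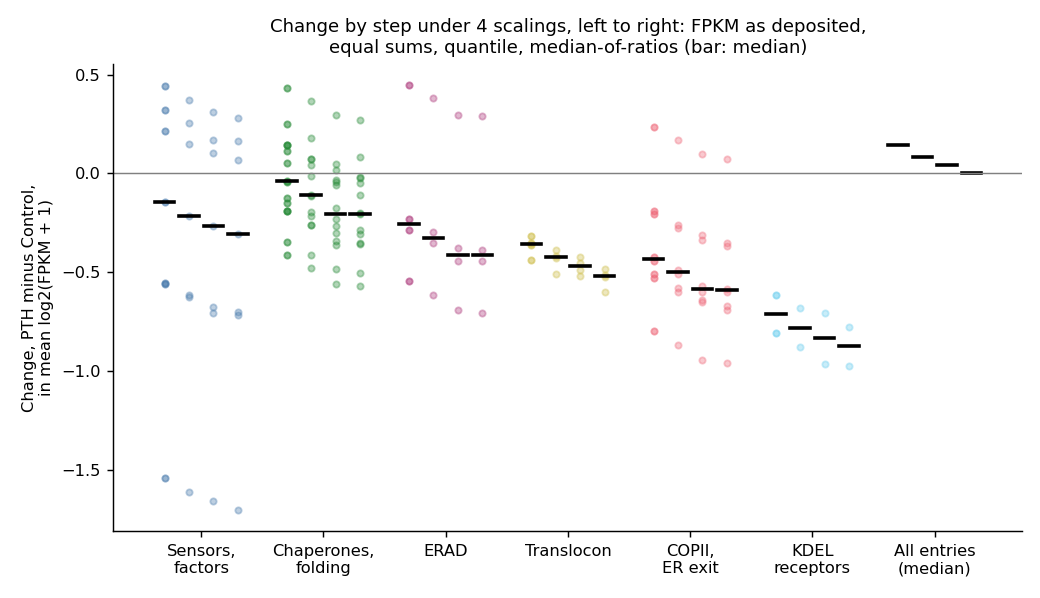
Change of every gene by step, as the difference PTH minus Control in mean log2(FPKM + 1) on the vertical axis, under 4 scalings from left to right within each step; coloured points are genes and black bars are medians, with the median of all entries at the far right. Rescaling shifts every step down by a like amount, leaving chaperones nearest to 0 (-0.040 as deposited) and KDEL receptors furthest below it (-0.71).

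On the deposited scale the genes with an ERSE or ERSE-II did not move as a block. Of these 9 genes 2 rose (Calr and Canx), 5 fell (Hsp90b1, Dnajc3, Dnajb11, Syvn1 and Herpud1) and 2 did not pass the test (Hspa5 and Pdia6), with a median change of -0.12. Of the 5 genes with a UPRE core the 4 transport genes Sec23a, Kdelr3, Sec24d and Mia3 fell and Hspa5 did not pass the test, with a median of -0.42. With median-of-ratios scaling Hspa5 (-0.20) and Pdia6 (-0.21) were called lower as well, and Calr (-0.022) and Canx (-0.018) did not pass the test. The other genes that fell were also called lower there. Both groups are small and are described only.

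Other genes of the same pathway, 8 lists with 143 of 150 genes tested, also fell more often than they rose (32 higher, 75 lower). Among all entries 50.3% rose and 23.5% fell, or 34.1% and 34.1% with median-of-ratios scaling. The lists of other ERAD factors, other UPR regulators and the PERK and ATF4 arm went the other way on the deposited scale. No list was tested against the shares of all entries. Of 27 other ER folding factors 20 fell and 2 rose (1 rose and 22 fell with median-of-ratios scaling; median change -0.27). The largest changes were in prolyl isomerases of the FKBP family that act in the ER. Fkbp7 had 96.4, 98.8 and 94.4 FPKM with PTH, against 254, 230 and 246 FPKM in Control (-1.32), Fkbp11 fell by 0.99, and Fkbp14, which helps collagen fold, fell by 0.85. These exceeded every change among the 14 chaperones described above.

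The COPI coat carries KDEL receptors and their cargo back to the ER. Of the 12 genes of its list, Kdelr1 among them, 10 fell and 1 rose (11 and 0 with median-of-ratios scaling). Copz2 fell by 0.83, the exchange factor Gbf1 by 0.48 and Copb2 by 0.45. Of 27 other COPII and ER-Golgi factors 14 fell and 6 rose (21 and 2 with median-of-ratios scaling), among them Sec16b, an organiser of exit sites, which fell by 0.92, Lman1, a cargo receptor for glycoproteins, which fell by 0.72, and Sec24a, which fell by 0.68. In both lists more genes fell than rose, with a median change of -0.38 for COPI and -0.10 for the other COPII and ER-Golgi factors, a difference that was not tested.

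Upstream, 12 of 20 other targeting and translocation factors fell and 2 rose (17 and 1 with median-of-ratios scaling). Sec11c, a signal peptidase subunit, fell by 0.69 and Tram1, a partner of the channel, by 0.62, while Sec61a2, a second form of the channel, was higher at 15.6, 15.9 and 16.8 FPKM with PTH, against 10.8, 10.5 and 9.84 FPKM in Control (0.59). Of 16 genes of glycan processing and oligosaccharyltransferase 7 fell and 1 rose (14 and 0 with median-of-ratios scaling). Its named members Ostc, Rpn1 and Rpn2, all subunits of the transferase, fell by 0.58, 0.37 and 0.36.

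In the lists of degradation and of stress signalling the balance of calls depended on the scaling. Among all entries 50.3% rose and 23.5% fell as deposited, and 34.1% rose and 34.1% fell with median-of-ratios scaling. Whether these lists differed from those shares was not tested. Of 18 other ERAD factors 10 rose and 6 fell on the deposited scale, and 4 rose and 7 fell with median-of-ratios scaling. H47, an older symbol of the selenoprotein gene Selenos, fell by 0.65, and the lectin gene Erlec1 fell by 0.57. Of 10 other UPR regulators 5 rose and 3 fell (3 and 5 with median-of-ratios scaling), with Creb3l3, a relative of OASIS best known from liver, at 2.46, 2.45 and 2.28 FPKM with PTH, against 11.2, 10.4 and 10.5 FPKM in Control (-1.79), Atf6b higher by 0.51 and Wfs1 higher by 0.49. Ern2, the intestinal IRE1, was at 0 in all 6 libraries.

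In the list for the PERK and ATF4 arm 5 of 13 genes rose and 3 fell (4 and 4 with median-of-ratios scaling). Of all entries 50.3% rose and 23.5% fell (34.1% and 34.1% with that scaling), and the list was not tested against these shares. The genes that moved most also answer to other signals. Ddit4, an inhibitor of mTORC1, had 83.6, 84.4 and 84.4 FPKM with PTH, against 20.4, 18.0 and 20.4 FPKM in Control (2.05). Vldlr, a lipoprotein receptor, had 3.80, 3.23 and 3.86 FPKM with PTH, against 32.2, 32.1 and 32.3 FPKM in Control (-2.85), and Nupr1, a stress-induced nuclear protein, had 244, 218 and 258 FPKM with PTH, against 563, 510 and 530 FPKM in Control (-1.15). Ddit4 thus rose together with Ddit3, while Vldlr and Nupr1 fell.

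As reference genes Actb and Gapdh were higher by 0.53 and 0.78, so a ratio to either would lower every value given for the 39 genes. The replicate SD of the 39 genes was small, at a median of 1.99% of the mean with PTH and 3.65% in Control, and at most 11.6%. The bounds of the deposited values implied from 266 to 53127 fragments per gene and library, and these numbers did not simply follow FPKM. Dnajb11 in PTH replicate 1, at 67.1 FPKM, had 432. The loci of 6 of the genes overlap another entry (Ddit3 with Mars, Pdia4 with Mir704, Pdia6 with Atp6v1c2, Syvn1 with Mrpl49, Preb with Abhd1 and Kdelr3 with Ddx17), and because the libraries do not mark strand their fragments may be shared.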

How the data were processed

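Polyadenylated RNA of 3 PTH and 3 Control wells of IDG-SW3 cells was sequenced from unstranded TruSeq libraries, with 6 barcoded libraries sharing a lane. The authors deposited an FPKM table per library, of the kind Cufflinks writes, with bounds and a status for each of 23700 entries. The submitters' processing notes name mm9, CASAVA 1.8, TopHat, Bowtie2, SAMtools and Cuffdiff, while the annotation used and whether counting took strand into account were not stated. A Cuffdiff table that the authors also deposited holds FPKM per group, fold changes and p-values. Only its group FPKM was used, as the authors' value.

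The distance from a value to its bound was read as 2 standard errors, and (FPKM/SE) squared as the implied fragments. Such bounds cover estimation error within a library only. Groups and replicate numbers came from the labels. Values were put on the log2(FPKM + 1) scale, and the 11900 entries averaging 1 FPKM or more were compared by limma 3.58.1 in R 4.3.3 (trended eBayes after lmFit), two-sided, with Benjamini-Hochberg adjustment over all of them. This scale understates changes of low genes. The fit was tested on simulated data. Type I collagen, without a Control estimate, was left out.

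The 39 genes, the pathway lists and the marker lists were chosen with earlier results of these data known. The rule for named genes took every one of the 39, up to 3 called genes with the largest change from each of 8 pathway lists, the markers, Actb and Gapdh. A gene that the rule takes is not reported here. Paralogue shares were added after the values were seen. Alternatives were a pseudocount of 0.1, no filter, a minimum of 5 FPKM, equal sums, median-of-ratios and quantile scaling, no variance trend, a replicate block and leaving out each library. Promoter windows were those of RefSeq (GRCm38.p6), with no coordinates converted from mm9.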

Additional observations from a re-analysis of the deposited data

How the results depend on the processing

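The median change of the 39 genes, -0.20 as deposited, was -0.27 with equal sums, -0.37 with median-of-ratios and -0.36 with quantile scaling, and the number called higher, 10 as deposited, was 5 with median-of-ratios and 5 with quantile scaling. Estimates changed sign for Manf (-0.049 with median-of-ratios, -0.033 with quantile scaling), Calr (-0.022 and -0.045), Canx (-0.018 with median-of-ratios), Pdia4 (-0.015 with equal sums, -0.11 with median-of-ratios, -0.061 with quantile scaling) and Pdia6 (0.0046 without Control replicate 1). Without Control replicate 2 Pdia6 was called lower at -0.0954. Equal sums and median-of-ratios lower the PTH values relative to Control by construction. Without a filter on low values Hsp90b1, Sdf2l1 and Calr lost their calls. Of the 39 genes 28 kept their side of the threshold under all 14 alternatives. Leaving out 1 library at a time gave 33 to 37 genes called, 9 to 10 of them higher and 24 to 27 lower, and a median change between -0.23 and -0.19. By the plain ratio of group FPKM 11 genes were higher from the library means and 10 from the authors' group values. This check was added after the data had been seen. The ratios were nonetheless lower from the authors' values for every gene but Pdia4 (1.04 from library means, 1.07 from the authors). That of Hspa5 went from 0.974 to 0.883, of Calr from 1.10 to 1.00 and of Manf from 1.08 to 0.981. Equal replicate numbers did not mark paired libraries: deviations of same-numbered libraries correlated at -0.079, 0.002 and -0.038, and others between -0.086 and 0.117. With the replicate block 34 of the 39 genes were called, 9 higher and 25 lower, and 8600 of all entries, against 36 and 8779 without it. The bounds implied as few as 266 fragments for a gene in a library, and each group had 3 libraries.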
